A study of Mus musculus with 27 samples.

Results

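The transcripts described are the 100 most abundant in sham-operated wild-type mouse liver. They were chosen by abundance, as the 100 with the highest mean TPM (a length-corrected share of the RNA of a library, scaled to a fixed total) over the 4 WT sham libraries, out of 111462 transcripts in each file, after the 13 mitochondrially encoded mRNAs were left out. Each is called by its rank in that order, so that rank 1 had the highest mean. The WT sham values chose the members and are therefore given as a description.

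The RNA came from livers of wild-type mice (WT) and of Alb-cre:Aclyf/f mice (KO), which carry a floxed Acly gene and a Cre recombinase driven by the albumin promoter. Acly encodes ATP citrate lyase, the enzyme that makes cytosolic and nuclear acetyl-CoA from citrate. The albumin promoter is active in hepatocytes, and whether other liver cells kept the gene was not checked. Both genotypes had sham or ischemia-reperfusion (IR) surgery, in which blood flow is stopped and then restored, and liver tissue of what the design text calls the broader zone was taken 24 hours later. Each of the 4 groups (WT sham, WT IR, KO sham and KO IR) had 4 libraries, 16 in all. The sources used here do not give the age, sex and strain of the mice, or whether the WT mice carried the floxed allele or the transgene. Nothing in the labels says that the libraries of a group come from different animals, so a p-value here reflects the spread between libraries, which may be technical.

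Hepatocytes make most plasma proteins, and a small number of mRNAs for secreted proteins such as albumin and apolipoproteins take up a large share of liver mRNA. In the mouse, the major urinary proteins, a family of near-identical genes, belong to the same abundant class. After tissue injury, hepatocytes are known to raise mRNAs of acute phase proteins and to lower those of other secreted proteins. The files name transcripts by Ensembl identifier only, and no table pairing those identifiers with genes was used here, so it is not stated which members encode such proteins. For the same reason the level of Acly RNA and the markers of liver cell types were not analysed here, and neither the genotype nor the tissue label was checked.

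Library totals were 37.79 to 44.6 M estimated counts. KO IR libraries 1 to 3 had totals of 37.79, 37.9 and 38.22 M, and no other library was under 42.8 M. The scaling factors for library composition (TMM) were 1.075 to 1.2 in KO IR and 0.864 to 1.017 in the other groups. TPM is a share of a fixed total, so a TPM level is relative to all other transcripts of its library. In whole tissue, fewer cells of a type and less RNA per cell cannot be told apart.

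In WT sham liver the transcript of rank 1 had 44219, 18986, 46559 and 30620 TPM in the 4 libraries, and that of rank 2 had 30992, 34718, 23099 and 34241 TPM. These 2 overlapped widely, and the order among the first members changed from library to library. The highest member was rank 1, 5, 1 and 2 in WT sham libraries 1 to 4, rank 8, 4, 8 and 1 in the WT IR libraries, rank 4, 4, 2 and 4 in those of KO sham, and rank 3, 3, 8 and 3 in those of KO IR. At the lower edge, rank 98 had 791 ± 102 TPM, rank 99 had 783 ± 236 and rank 100 had 769 ± 933 (SD, n = 4). The next transcripts, ranks 101 and 102, had 746 ± 69.6 and 744 ± 146 TPM, so the edge does not separate the members from what lies below it. When 1 WT sham library was left out of the ranking, 97 to 99 of the 100 members stayed the same.

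The members were short beside other expressed transcripts, and less so beside all transcripts. Their median length was 927 bases (range 315 to 5136) and 57 of 100 were under 1000 bases. The transcripts of ranks 101 to 200 had a similar median of 929 bases. Over the 17000 transcripts with a mean of at least 1 TPM the median was 1756 bases, and 32.1% were under 1000. Over all 111462 transcripts, expressed or not, it was 1044 bases, and 48.8% were under 1000. Length enters the TPM calculation, and its part in the make-up of the list was not tested.

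Some members could not be measured apart from each other. Ranks 5 and 6 (741 bases), 26 and 27 (925 bases), 42 and 43 (925 bases), and 46 and 47 (757 bases) were pairs of equal length with the same TPM in all 16 libraries (relative tolerance 0.001). The 100 members therefore hold 96 distinct measurements. A further group had nearly the same length: 15 members of 916 to 939 bases (ranks 1, 4, 15, 23, 24, 26, 27, 28, 38, 39, 40, 42, 43, 79 and 98). They are all members within 12 bases of the length of rank 1, a band chosen after its values were seen. Length alone defines this group, and the median length of all members, 927 bases, lies in it. How many of all transcripts have such a length was not counted. Estimates for near-identical transcripts can split shared reads in different ways, and the files do not show which members share sequence.

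The median coefficient of variation (SD over mean) of a member was 17.3%, 13.1%, 11.9% and 14.7% in WT sham, WT IR, KO sham and KO IR. Over all transcripts of at least 1 TPM it was 21.6%, 16.9%, 18.1% and 18.9%, and over ranks 101 to 200, nearer in level, 15.9%, 13.9%, 10.9% and 12.8%. The members were below all expressed transcripts in each group, and above ranks 101 to 200 in each group but WT IR. In WT sham it ran from 2.38% at rank 37 to 121% at rank 100, and 7 members were over 50%.

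WT sham library 4 set several of these spreads. The transcript of rank 12 (678 bases) had 18522, 14925 and 15693 TPM in WT sham libraries 1 to 3 and 0.276 TPM in library 4. A mitochondrially encoded mRNA of 681 bases, which is not a member, had 21370, 22089 and 21653 TPM in libraries 1 to 3 and 33300 in library 4. The sum of both was 39892, 37014, 37346 and 33300 TPM, so with library 4 in WT sham the sum varied far less than the member did. The other groups did not all show this. The sum ran from 36141 to 41590 TPM in WT IR (member 12893 to 20098). It ran from 32957 to 38743 in KO sham (member 14251 to 16551) and from 34651 to 42196 in KO IR (member 18274 to 25548). Library 4 was also the lowest for rank 22 (599 TPM, against 7566 to 8621 in the others) and the highest for ranks 17, 20, 25 and 49. Including ranks 12 and 25, 7 members (ranks 3, 10, 12, 13, 25, 32 and 70) lay within 4 bases of the length of a mitochondrially encoded mRNA. How many of all transcripts lie as close to such a length was not counted, so the number 7 has no background. Whether reads are shared between these members and mitochondrial mRNAs was not tested.

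**Figure D1:**
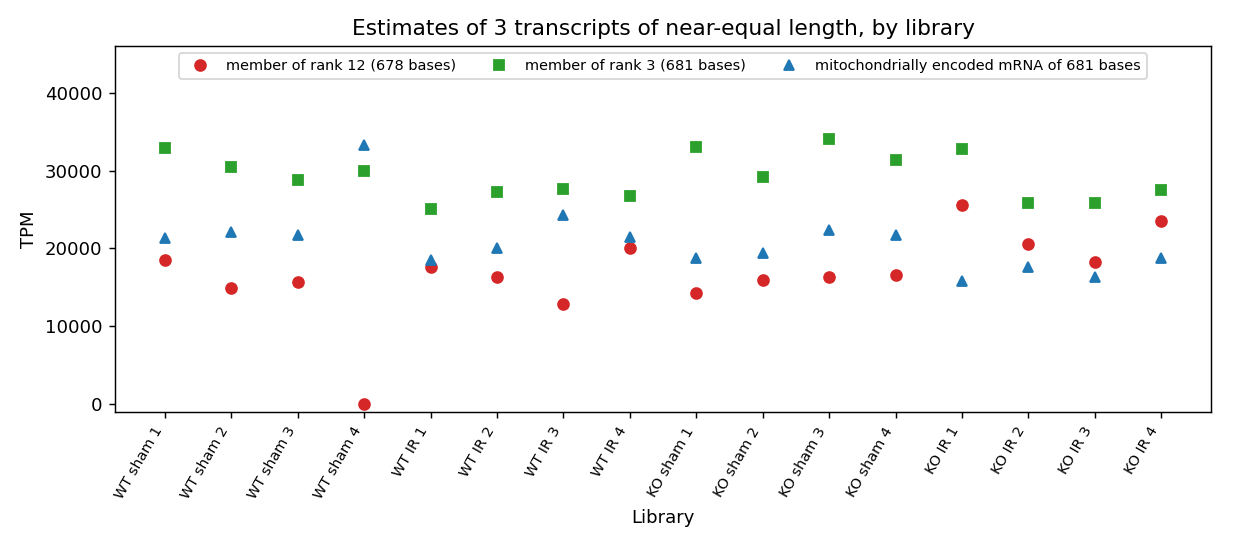
TPM in each of the 16 libraries (x axis) of the members of rank 12 (678 bases) and rank 3 (681 bases) and of a mitochondrially encoded mRNA of 681 bases. In WT sham library 4 the member of rank 12 falls to 0.276 TPM while the mitochondrial mRNA stands at 33300, its highest value among the 4 WT sham libraries.

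The members held a smaller mean share of TPM after IR than after sham surgery in both genotypes, and the smallest in KO IR. Their summed share of TPM was 53.3%, 54.5%, 54.7% and 49.7% in the WT sham libraries (53.1% ± 2.31, SD, n = 4). It was 46.8%, 48.3%, 46.0% and 49.8% in WT IR (47.7% ± 1.69), and WT sham library 4 lay just below the highest WT IR library. KO sham had 56.0%, 52.9%, 52.1% and 55.3% (54.1% ± 1.87), no lower than the WT sham livers on which the members were ranked. KO IR had 43.3%, 41.8%, 44.6% and 44.2% (43.5% ± 1.21), and each of its libraries lay below every KO sham and every WT IR library. KO IR library 4, with a total of 44.35 M in the range of the other groups and a TMM factor of 1.084, had 44.2%. The part of the library total in the share was not tested.

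The summed share of the first 50 ranks was lower after IR and that of ranks 51 to 100 was higher. Ranks 1 to 10 held 25.9% ± 2.57 of TPM (WT sham), 21.6% ± 2.10 (WT IR), 27.4% ± 2.08 (KO sham) and 17.9% ± 1.12 (KO IR; SD, n = 4 each). Ranks 11 to 50 held 21.2% ± 0.288, 17.8% ± 0.476, 20.5% ± 0.783 and 16.6% ± 0.679 in the same order. Ranks 51 to 100 went the other way, with 5.95% ± 0.416, 8.38% ± 0.649, 6.19% ± 0.166 and 8.96% ± 0.424. For ranks 51 to 100, every IR library of either genotype lay above every sham library, although more of these members were called lower (19) than higher (13) in KO IR against KO sham. A few members with large gains, given next, carried the sum. The 13 mitochondrial mRNAs left out of the list held 19.4% ± 0.716, 19.4% ± 1.62, 17.8% ± 1.29 and 19.7% ± 1.18.

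**Figure D2:**
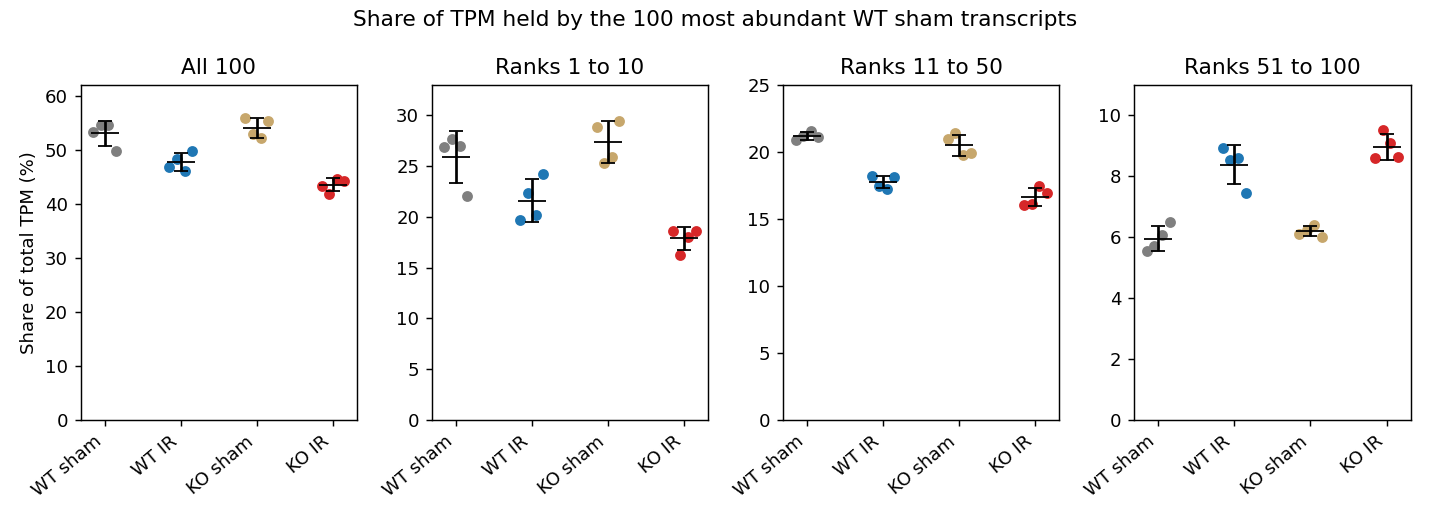
Share of total TPM (%, y axis) held by all 100 members and by ranks 1 to 10, 11 to 50 and 51 to 100 in each library of the 4 groups; points are libraries, long horizontal lines are means and error bars are SD (n = 4). The KO IR libraries are the lowest for all 100 members (43.5% ± 1.21), and both IR groups lie above both sham groups for ranks 51 to 100.

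From KO sham to KO IR the mean share of the members changed by -10.59 points of total TPM. In this sum 67 members were lower, together by -16.3 points, and 33 were higher, together by 5.71 points. Rank 4 alone made up -2.68 points, ranks 5 and 6 -1.50 each and rank 7 -1.47. The largest gains were at rank 100 (0.68 points), rank 12 (0.62), rank 59 (0.47), rank 57 (0.45) and rank 72 (0.44). From WT sham to WT IR the change was -5.31 points, with 65 members lower and 35 higher. KO IR minus WT IR was -4.26 points, with 60 lower and 40 higher, and KO sham minus WT sham was 1.02 points, with 36 lower and 64 higher.

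The make-up of the most abundant class was nearly the same in KO sham and less so after IR. Of the members, 95 were also among the 100 most abundant of KO sham, 82 among those of WT IR and 78 among those of KO IR. The lowest place a member reached was 201 in KO sham, 301 in WT IR and 775 in KO IR.

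KO IR was tested against KO sham, and neither group's values chose the members. WT sham still enters this test, through the filter on low counts, the scaling factors and the shared estimate of the spread. Leaving out 1 WT sham library changed the number of transcripts tested from 36041 to between 37559 and 37655. The list is still one of transcripts high in sham liver, with 95 of its 100 members among the 100 most abundant of KO sham. It leaves out 22 transcripts that were among the 100 most abundant of KO IR. The split into lower and higher calls is therefore not free of the choice. Against KO sham, 54 members were lower and 14 higher in KO IR, and 32 did not pass the test (edgeR quasi-likelihood test, adjusted p under 0.05 over 36041 transcripts). Of all tested transcripts 11.3% were called, 5.84% higher and 5.47% lower. In the same fit, abundant transcripts were called more often: of the 7445 with at least 10 CPM (counts scaled to library size) in 4 libraries, 29.1% were called, 13.1% higher and 16% lower. The median log2 fold change was -0.65 over the members and 0.01 over all tested transcripts, and 23 of 100 members were above 0, against 50.9% of all. With each identical pair counted once, 50 of 96 were lower and 14 higher. Among ranks 101 to 200 the counts were 45 lower and 11 higher, so the excess of lower calls went on below the edge of the list.

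Lower calls prevailed at the top ranks, and nearly all higher calls lay at the bottom ones. Of ranks 1 to 10, 8 were lower and 0 higher. Among these 8, ranks 2, 3, 9 and 10 had overlapping TPM in KO sham and KO IR. The log2 fold changes of ranks 3, 9 and 10 were -0.55, -0.51 and -0.57 on the TMM scale. Rank 44 was also called lower on that scale, although its mean TPM was 2771 in KO sham and 2921 in KO IR. Of ranks 11 to 50, 27 were lower and 1 higher, and of ranks 51 to 100, 19 were lower and 13 higher. Scaling by library totals without TMM factors moved the median of all tested transcripts from 0.01 to 0.30 and that of the members from -0.65 to -0.37, and it gave 42 lower and 21 higher members. Under that scaling the split over all transcripts was 5185 higher and 1053 lower, against 2105 higher and 1970 lower with TMM. On the deposited TPM values, 40 members in KO IR lay wholly below KO sham (2.9% of all tested transcripts did so) and 21 wholly above (21.9%).

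**Figure D3:**
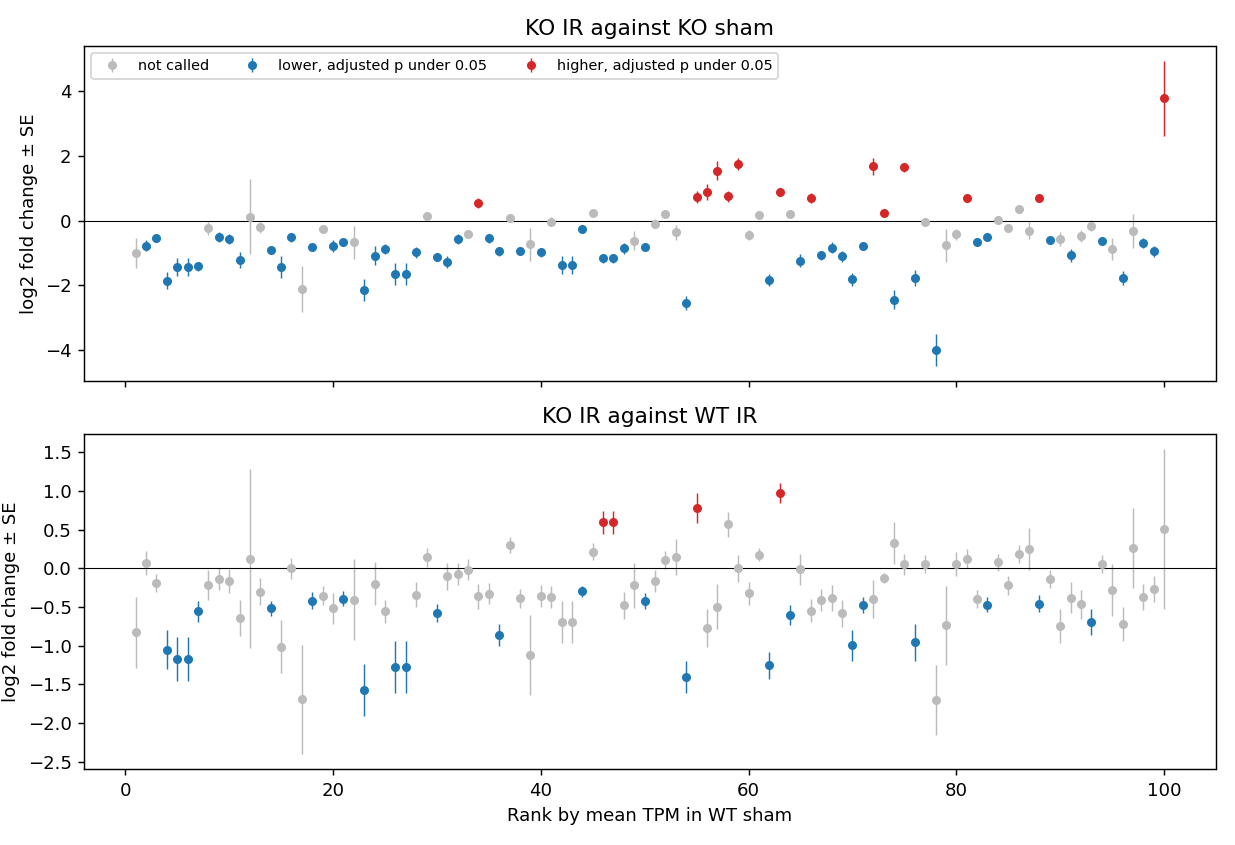
Fitted log2 fold change of each member (points; bars are ± 1 SE) against its rank by mean TPM in WT sham, for KO IR against KO sham (top) and KO IR against WT IR (bottom). Blue and red points passed the edgeR test at an adjusted p under 0.05; 54 members are lower and 14 higher in the top panel, and 23 lower and 4 higher in the bottom panel.

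Among the first 10 members, rank 7 (861 bases) had 29060, 27048, 29246 and 28072 TPM in KO sham and 15574, 13611, 13384 and 12005 TPM in KO IR, a log2 fold change of -1.42 (SE 0.14, edgeR adjusted p = 2.07e-05). Rank 4 (927 bases), the highest member in 3 of 4 KO sham libraries, had 45606, 35761, 32587 and 53364 TPM in KO sham and 20145, 15205, 9884 and 15083 in KO IR (log2 fold change -1.87, SE 0.26, edgeR adjusted p = 0.000315). In both transcripts every KO IR library lay below every KO sham library.

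Ranks 5 and 6, the identical pair of 741 bases, had 31228, 24535, 24973 and 33255 TPM in KO sham and 10681, 11696, 14138 and 17479 in KO IR (log2 fold change -1.43, SE 0.28, edgeR adjusted p = 0.00397). Rank 2 (2034 bases) fell by 0.78 on the log2 scale (SE 0.16, adjusted p = 0.00479), with 31936, 29406, 39771 and 21498 TPM in KO sham and 24137, 24118, 25263 and 17829 in KO IR. The TPM ranges of rank 2 overlapped. Ranks 1 and 8 did not pass the test, with log2 fold changes of -1.004 (SE 0.46) and -0.24 (SE 0.19). Rank 1 ran from 11014 to 39020 TPM in KO sham and from 13404 to 23183 in KO IR, so its spread within KO sham was wider than the difference.

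The 8 members with the largest falls had ranks 78, 54, 74, 23, 4, 62, 70 and 76. Rank 78 (ENSMUST00000029076.5, 1679 bases) had 962, 1230, 1541 and 884 TPM in KO sham and 110, 47.3, 155 and 50.05 in KO IR. Its log2 fold change was -4.01 (SE 0.50, edgeR adjusted p = 0.000138), the largest fall of any member, and its KO IR libraries all lay far below KO sham. It also had 437, 159, 285 and 127 TPM in WT IR against 622 to 1644 in WT sham, and these did not overlap.

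Rank 54 (ENSMUST00000102840.4, 1696 bases) had 1967, 2014, 2663 and 1915 TPM in KO sham and 496, 465, 560 and 363 in KO IR (log2 fold change -2.54, SE 0.22, edgeR adjusted p = 1.03e-05). Rank 74 (2344 bases) had 2238, 1515, 1674 and 1751 TPM in KO sham and 466, 336, 642 and 256 in KO IR (-2.45, SE 0.28, adjusted p = 8.08e-05). Rank 62 (1404 bases) had 1472, 1450, 1784 and 1371 TPM in KO sham and 511, 453, 743 and 452 in KO IR (-1.84, SE 0.18, adjusted p = 1.96e-05). In these 3 members the KO sham and KO IR libraries did not overlap. Ranks 23, 70 and 76 fell by 2.16, 1.82 and 1.78 on the log2 scale, with edgeR adjusted p of 0.000828, 5.33e-05 and 0.000313.

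The 8 members with the largest rises had ranks 100, 59, 72, 75, 57, 63, 56 and 58. Rank 59 (ENSMUST00000029630.14, 2083 bases) had 1330, 1501, 1442 and 1324 TPM in KO sham and 4835, 7971, 5262 and 6208 in KO IR, a log2 fold change of 1.75 (SE 0.18, edgeR adjusted p = 2.63e-05). Rank 75 (1695 bases) had 928, 1161, 1135 and 842 TPM in KO sham and 3538, 5188, 3515 and 3995 in KO IR (1.64, SE 0.14, adjusted p = 1.03e-05). Rank 72 (775 bases) had 1066, 1318, 1099 and 2103 TPM in KO sham and 5808, 6345, 5280 and 5899 in KO IR (1.67, SE 0.25, adjusted p = 0.000586). All 12 KO IR values of these 3 members stood above the KO sham values of the same member.

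Rank 57 (1345 bases) had 1316, 1568, 1308 and 2233 TPM in KO sham and 5756, 5697, 6324 and 6460 in KO IR (log2 fold change 1.54, SE 0.30, edgeR adjusted p = 0.00334). Ranks 63, 56 and 58 rose by smaller amounts, 0.89 (SE 0.13), 0.88 (SE 0.24) and 0.75 (SE 0.16) on the log2 scale, with edgeR adjusted p of 0.000359, 0.0293 and 0.007. These fitted folds are on the TMM scale and are smaller than the ratios of mean TPM. The call of rank 56 held in 17 of 25 alternative fits, with edgeR or DESeq2 adjusted p from 0.00278 to 0.098.

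Rank 100 (ENSMUST00000034215.7, 549 bases) had the largest rise of any member and the widest relative spread in WT sham. It had 22.8, 159, 2064 and 828 TPM in WT sham, 3832, 3836, 4978 and 4155 after IR, 235, 79.7, 56.0 and 1114 in KO sham, and 6666, 9415, 6160 and 6409 in KO IR. The sham libraries of each genotype differed among themselves by a far larger ratio than the IR libraries, and no sham library reached an IR library of either genotype. Against KO sham its log2 fold change was 3.78 (SE 1.15, edgeR adjusted p = 0.0481), and the call held in 10 of the 24 alternative fits that gave an adjusted p (0.0103 to 0.125). Without KO sham library 4 the log2 fold change was 5.52, and with the replicate number as a block it was 4.39. Its mean in WT sham rested mainly on library 3.

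**Figure D4:**
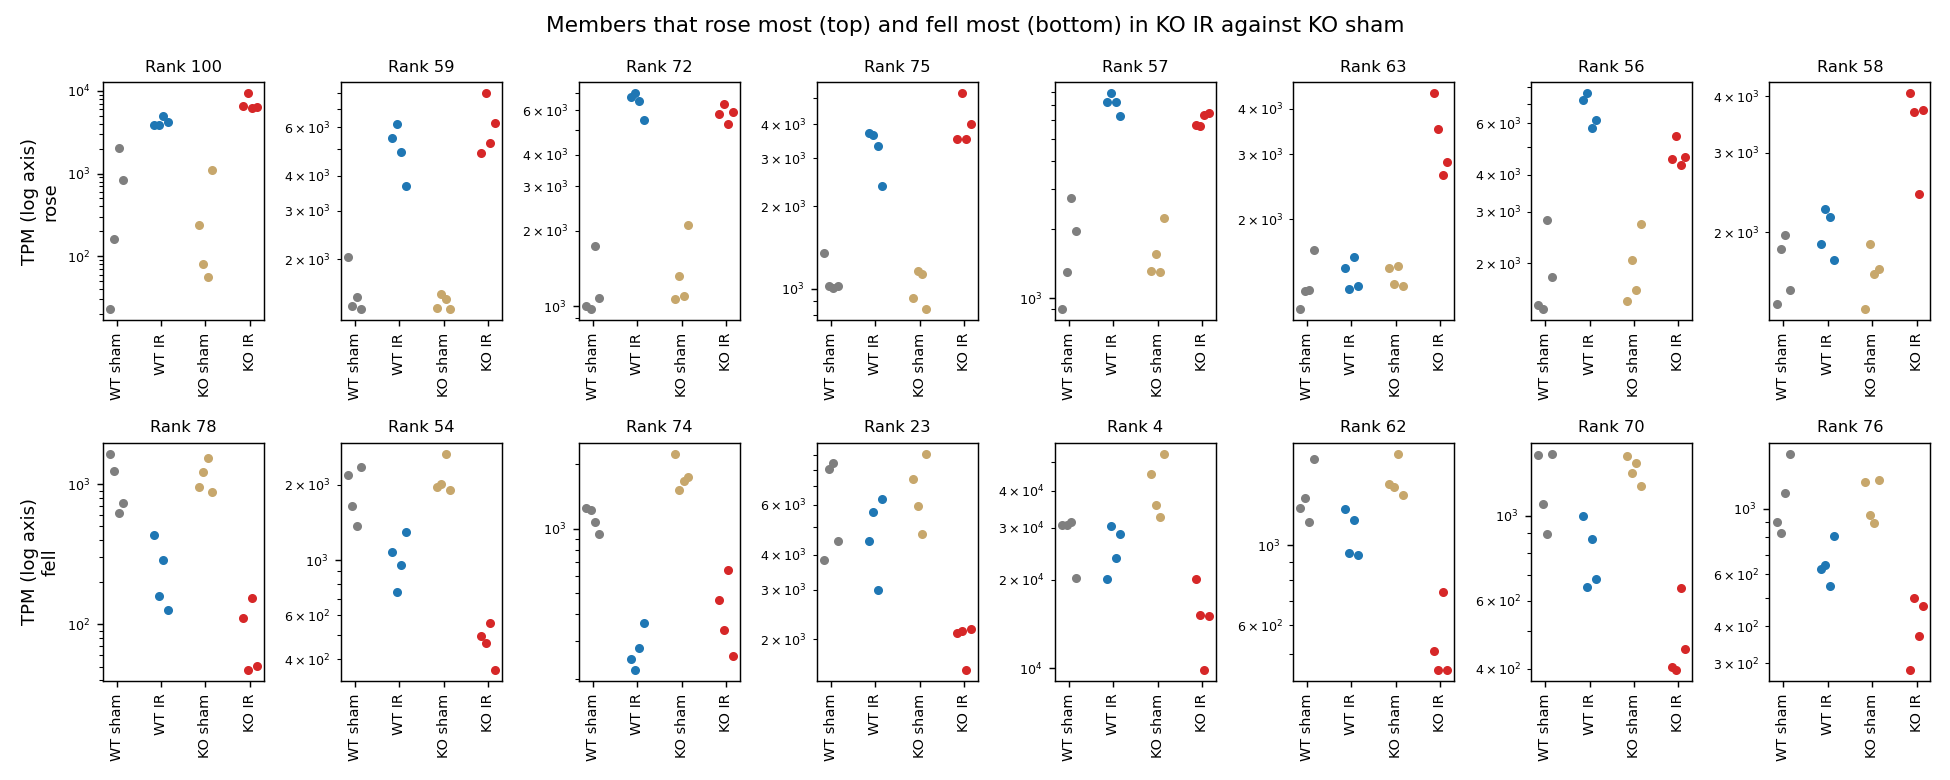
TPM (log axis, own scale in each panel) in the 16 libraries for the 8 members that rose most (top) and the 8 that fell most (bottom) in KO IR against KO sham; each point is 1 library. The KO IR points of ranks 63 and 58 lie above those of the 3 other groups, while ranks 100, 59, 72, 75, 57 and 56 are high in both IR groups.

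Members of 916 to 939 bases held a smaller share of TPM in KO IR than in KO sham. They held 11.7% ± 2.35 of TPM (WT sham), 8.69% ± 2.64 (WT IR), 11.7% ± 2.82 (KO sham) and 5.73% ± 0.572 (KO IR; SD, n = 4 each). The KO IR libraries, at 5.32% to 6.57%, all lay below the KO sham libraries, at 8.12% to 14.8%. WT IR ran from 6.33% to 11.9% and overlapped KO IR. Of these 15 members 12 were lower and 0 higher in KO IR against KO sham, where 5.47% of all tested transcripts were lower. With identical pairs counted once these were 10 of 13, and ranks 1, 39 and 79 did not pass the test. Of the other 85 members 42 were lower and 14 higher. Since the band was chosen after its values were seen, these counts are a description.

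Within the band, rank 23 (927 bases) had 7415, 5940, 4726 and 9115 TPM in KO sham and 2098, 2147, 1555 and 2167 in KO IR, with no overlap. The pair of ranks 26 and 27 (925 bases) had 4981, 4529, 3506 and 5540 TPM in KO sham and 1668, 2004, 1814 and 2107 in KO IR (log2 fold change -1.66, SE 0.34, edgeR adjusted p = 0.00493). The other members together held 41.4%, 39.1%, 42.4% and 37.8% of TPM in WT sham, WT IR, KO sham and KO IR.

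Some members were high in TPM after IR without passing the test. Rank 12 had 14251, 15941, 16324 and 16551 TPM in KO sham and 25548, 20605, 18274 and 23494 in KO IR, with no overlap. Its log2 fold change was 0.12 (SE 1.16, edgeR adjusted p = 0.974), and the SE comes from a model that also holds WT sham library 4, where it was listed at 0.276 TPM. Rank 37 (968 bases) had 3870, 3464, 3794 and 3731 TPM in KO sham and 4655, 5507, 5159 and 4720 in KO IR, with a log2 fold change of 0.07 (adjusted p = 0.786). For rank 37 the TPM ranges did not overlap, while the fold on the TMM scale was near 0.

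Fewer members were called between KO IR and WT IR than between KO IR and KO sham, and so were fewer of all tested transcripts. The sizes of these differences were not tested against each other. Against WT IR, 23 members were lower and 4 higher in KO IR, and 73 did not pass the test (edgeR, adjusted p under 0.05). Of all tested transcripts 4.0% were called, 2.22% higher and 1.78% lower, and in the same fit 9.98% of those with at least 10 CPM in 4 libraries, 4.35% higher and 5.63% lower. The median log2 fold change was -0.36 over the members and -0.01 over all, and 25 of 100 members were above 0, against 49.5% of all. On deposited TPM, 14 members lay wholly below WT IR (2.13% of all) and 13 wholly above (15.8%). With library totals the medians became -0.17 and 0.20, and 9 members were called lower and 7 higher. Under that scaling the calls over all transcripts were 2267 higher and 372 lower, against 799 and 643 with TMM.

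By rank, 4 of ranks 1 to 10 were lower and 0 higher, 10 of ranks 11 to 50 were lower and 2 higher, and 9 of ranks 51 to 100 were lower and 2 higher. With the identical pairs counted once, 21 were lower and 3 higher. Leaving out 1 library moved this count and the count over all transcripts. The members called were 15, 11, 15 and 10 without WT IR library 1, 2, 3 or 4, 12 and 6 without KO IR library 1 or 2, and 28 and 18 without KO IR library 3 or 4. Over all transcripts the 1442 calls became 1122, 832, 865, 757, 900, 596, 1505 and 1107 in that order.

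Members lower in KO IR than in WT IR included several of the most abundant. Rank 4 had 20169, 30281, 23762 and 28504 TPM in WT IR and 9884 to 20145 in KO IR (log2 fold change -1.05, SE 0.25, edgeR adjusted p = 0.0325). Ranks 5 and 6 had 23204, 25672, 20918 and 32272 TPM in WT IR and 10681 to 17479 in KO IR (-1.17, SE 0.28, adjusted p = 0.0315). In both cases the WT IR and KO IR libraries did not overlap. These calls were near the threshold, and over 25 alternative fits they held in 17 for rank 4 (adjusted p 0.00115 to 0.105) and in 18 for ranks 5 and 6 (0.00108 to 0.118).

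Ranks 54 and 62 were lower in KO IR than in WT IR in each of the 25 alternative fits. Rank 54 had 1077, 747, 959 and 1295 TPM in WT IR, all above the 363 to 560 TPM of KO IR (log2 fold change -1.40, SE 0.21, edgeR adjusted p = 0.00274). Rank 62 had 1259, 951, 1170 and 938 TPM in WT IR against 452 to 743 in KO IR (-1.25, SE 0.17, adjusted p = 0.00181). Rank 62 in WT IR overlapped WT sham, where it had 1157 to 1731 TPM. The fold of rank 23 was -1.57 (SE 0.34, adjusted p = 0.0176) and that of ranks 26 and 27 was -1.27 (SE 0.34, adjusted p = 0.0489), and their calls held in 21 and 10 of the 25 alternative fits.

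Rank 63 (866 bases) rose in KO IR against both groups. It had 1136, 1273, 1281 and 1648 TPM in WT sham, 1475, 1288, 1573 and 1317 after IR, 1475, 1332, 1489 and 1317 in KO sham, and 4408, 3528, 2641 and 2855 in KO IR. The KO IR libraries lay above all 12 others, and those 12 overlapped one another. Against WT IR its log2 fold change was 0.97 (SE 0.13, edgeR adjusted p = 0.00126), and the call held in all 25 alternative fits.

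Rank 55 (565 bases) showed the same order with a narrower gap. It had 1895, 1590, 1316 and 2088 TPM in KO sham, 1856, 1664, 1991 and 1762 in WT IR, and 2995, 4163, 4162 and 3472 in KO IR. Its log2 fold change was 0.78 against WT IR (SE 0.19, edgeR adjusted p = 0.035) and 0.73 against KO sham (SE 0.19, adjusted p = 0.0216). The call against WT IR held in 17 of 25 alternative fits, with adjusted p from 0.00212 to 0.109.

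The pair of ranks 46 and 47 (757 bases) stood between the other groups in KO IR. It had 2215, 2191, 2458 and 2653 TPM in WT sham, 970, 803, 819 and 813 after IR, 3167, 2985, 1999 and 2628 in KO sham, and 1324, 1641, 1752 and 1418 in KO IR. KO IR was below KO sham (log2 fold change -1.17, SE 0.15, edgeR adjusted p = 0.000158) and above WT IR (0.60, SE 0.15, adjusted p = 0.0362), without overlap in either case. The call against WT IR held in 14 of 25 alternative fits (adjusted p 0.00236 to 0.112). Rank 88 (5136 bases), the longest member, stood between the same groups in the opposite order. It had 864, 998, 900 and 848 TPM in KO sham, 1819, 2022, 2065 and 1559 in KO IR, and 2198, 2401, 2160 and 1725 in WT IR, with log2 fold changes of 0.68 (edgeR adjusted p = 0.00112) and -0.46 (edgeR adjusted p = 0.0364), and its KO IR and WT IR libraries overlapped.

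The comparisons of KO IR with KO sham and with WT IR share the KO IR libraries, so their calls are not independent. Side by side, 20 members were lower in both and 2 (ranks 55 and 63) higher in both, against 1.34% and 1.72% of all tested transcripts. The pair of ranks 46 and 47 was lower against KO sham and higher against WT IR, and rank 88 was higher against KO sham and lower against WT IR, against 0.0111% and 0.0194% of all. Ranks 64 and 93 were called against WT IR alone.

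WT IR against WT sham uses the libraries that chose the members, and its values are a description. On deposited TPM 21 members lay wholly below WT sham (2.31% of all tested transcripts did so) and 13 wholly above (5.09%). The median fitted log2 fold change was -0.26 over the members and -0.01 over all transcripts, and 33 members were above 0, against 48.5% of all. The highest fitted values were at ranks 100 (2.38), 72 (2.35), 57 (1.98) and 56 (1.78), and the lowest at ranks 78 (-2.17), 74 (-2.07) and the pair 46 and 47 (-1.55).

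Most of the members that rose in KO liver were also high after IR in WT liver. Rank 72 had 1002, 975, 1735 and 1079 TPM in WT sham and 6778, 7009, 6516 and 5486 in WT IR. Rank 59 had 2039, 1359, 1463 and 1320 TPM in WT sham and 5483, 6185, 4865 and 3686 in WT IR, and its WT IR and KO IR libraries overlapped (log2 fold change 0.00, edgeR adjusted p = 1.0). Rank 56 had 1439, 1391, 2796 and 1794 TPM in WT sham and 7210, 7614, 5794 and 6167 in WT IR, all 4 above its 4342 to 5428 TPM in KO IR. That last difference did not pass the test (log2 fold change -0.77, edgeR adjusted p = 0.0977).

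Among the members low after IR in WT liver, rank 74 had 1246, 1220, 1071 and 947 TPM in WT sham and 248, 220, 277 and 363 in WT IR. Rank 31 (553 bases) had 3877, 5068, 3358 and 4249 TPM in WT sham and 1787, 1788, 1642 and 1699 in WT IR. In both the groups did not overlap, and in both the KO IR libraries overlapped the WT IR libraries.

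**Figure D5:**
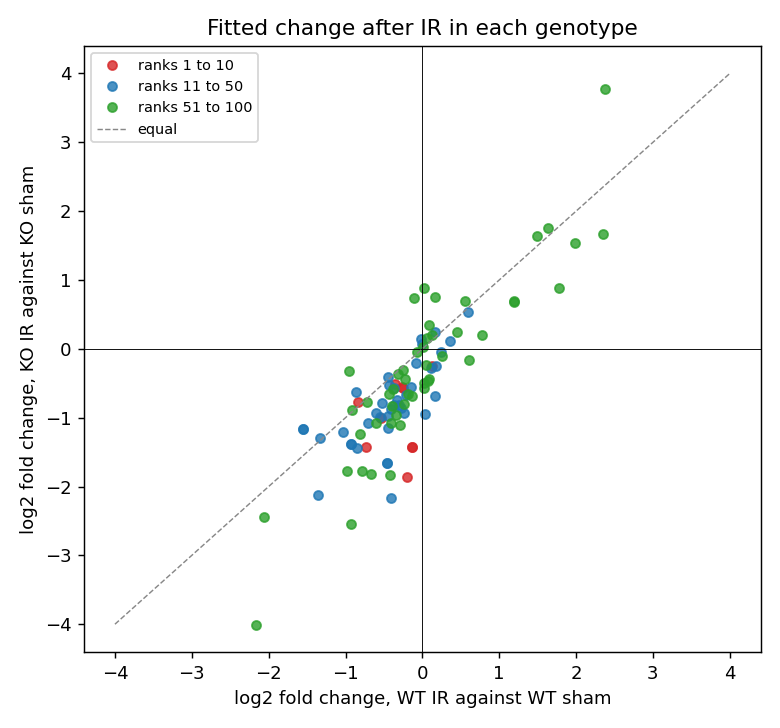
Fitted log2 fold change after IR in WT (x axis, a description, since WT sham chose the members) and in KO (y axis) for the 100 members, coloured by rank; the dashed line marks equal values. Rank 78 lies at -2.17 in WT and -4.01 in KO, and rank 63 at 0.02 and 0.89; the difference between the 2 responses was not tested.

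In both genotypes together, 17 members had lower TPM in IR than in sham with no overlap in either genotype (0.76% of all tested transcripts) and 12 had higher TPM (3.02%). No member, 0 of 100, was separated in opposite directions in the 2 genotypes, where 0.00832% of all tested transcripts were higher in WT and lower in KO and 0.0749% lower in WT and higher in KO.

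Without IR, few members separated the genotypes. In KO sham 5 members (ranks 4, 37, 69, 74 and 91) lay wholly above WT sham on TPM (0.863% of all tested transcripts did so) and 1 (rank 11) wholly below (1.08%). The median fitted log2 fold change was 0.07 over the members and -0.01 over all transcripts, and 67 members were above 0, against 49.1% of all. These values are a description because WT sham chose the members. Rank 74 had 2238, 1515, 1674 and 1751 TPM in KO sham and 947 to 1246 in WT sham (log2 fold change 0.71). Rank 4 had a mean of 41830 TPM in KO sham and 28255 in WT sham (0.61). Rank 11 (1295 bases) had 9238, 10819, 8404 and 8243 TPM in KO sham and 11764 to 13438 in WT sham (-0.45).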

How the data were processed

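RNA was measured in 16 mouse liver libraries, grouped by their titles. Their treatment labels read normoxia and hypoxia-reperfusion, where the titles and design text give sham and IR surgery. Trimmomatic and kallisto and the build mm10 were used, per the submitters' processing notes, and no versions are named there. The deposited files hold kallisto estimated counts and TPM per transcript, per the file headers. Deposited TPM values ranked the members and describe levels and shares. The mitochondrial mRNAs were left out by their known Ensembl identifiers. The authors' estimated counts were rounded and tested in edgeR 4.0.16 (R 4.3.3, limma 3.58.1), as 1 quasi-likelihood model over the 4 groups with filterByExpr, TMM scaling and 12 residual degrees of freedom. It tested 36041 transcripts, all 100 members among them, with Benjamini-Hochberg adjustment over all of them and a threshold of 0.05. SE is the size of the log2 fold change over the square root of F. The script was tested on simulated data. Pairs of libraries within a group differed beyond counting noise (chi-square per degree of freedom at least 26.4), so none was counted as a duplicate.

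The members and lists were chosen with earlier results of these data known. KO IR was tested against KO sham and against WT IR. Comparisons with WT sham, which chose the members, and all shares carry no p-value. Named members are the 8 with the largest fitted change in each direction among those called, or all where fewer were called, plus the first 10 ranks and members that a count or spread turns on, the last chosen after their values were seen. Identifiers are printed for 2 that rose and 2 that fell. DESeq2 1.42.0, other scalings, filters and list sizes, a replicate block and leaving out each library were tried. The CUT&RUN peak lists of the series and gene and marker lists, which need gene names, were not used here. TPM depends on length and on how kallisto splits shared reads.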

Additional observations from a re-analysis of the deposited data

Results flagged for a closer look

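The members looked at were those named in the report and those with the largest fitted changes in the comparisons with WT sham. Among them, the following libraries stood apart from the other 3 of their group. The gap to the nearest library, as a part of the group's whole range, exceeded Dixon's 95% critical value for 4 libraries. Chance flags about 1 in 20 groups of 4, and over all members 23 of 400 groups stood out in this way, so the single cases below are given as values.

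In WT sham, rank 4 had its lowest library at 20327 TPM (the others 30648 to 31357) and rank 22 at 599 TPM, both in library 4. The highest WT sham library stood apart at rank 72 (1735 TPM, library 3) and at rank 75 (1351 TPM, library 1). The share of TPM held by ranks 1 to 10 had its lowest WT sham value, 22.09%, in library 4. In WT IR, the pair of ranks 46 and 47 had its highest library at 970 TPM, against 803 to 819 in the others.

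In KO sham the highest library stood apart at rank 54 (2663 TPM), rank 97 (881 TPM) and rank 100 (1114 TPM). In KO IR the lowest library stood apart at rank 2 (17829 TPM, library 4) and rank 23 (1555 TPM, library 3), and the highest at rank 96 (499.8 TPM) and rank 100 (9415 TPM). The causes of these gaps were not tested.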

How the results depend on the processing

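The members called in KO IR against WT IR kept their direction in each alternative, as did those called against KO sham except rank 44, which moved from -0.28 to 0.0026 on the log2 scale with library totals. Of the members not called against KO sham, 10 changed sign in at least 1 alternative, rank 8 among them. Members not called against WT IR also changed sign, among them ranks 3, 9 and 10 with library totals. Ranks 16 and 65, with log2 fold changes of -0.0017 and -0.0097 against WT IR, did so in 8 alternatives each. For KO IR against KO sham the count of 68 called members stayed within 1.5 times under DESeq2, the other scalings and filters and the fit of the compared groups alone. With the top 50 as the list it was 36 (1 higher, 35 lower) and with the top 200 it was 124 (25 higher, 99 lower). Leaving out 1 library gave 53 to 70 (9 to 14 higher, 44 to 57 lower), with 9 higher without KO sham 3, KO IR 2 or KO IR 3. Library totals gave 21 higher. For KO IR against WT IR the count of 27 (4 higher, 23 lower) became 39 (6, 33) under DESeq2, 37 (6, 31) with the 10 CPM filter, 14 (1, 13) with no filter, 16 (7, 9) with library totals, 16 with the compared groups alone (12 lower), 16 (2, 14) for the top 50 and 49 (44 lower) for the top 200. Leaving out 1 library gave 6 to 29 (1 to 4 higher, 5 to 26 lower). Without the 7 members close in length to a mitochondrial mRNA, an alternative chosen after seeing the data, the counts were 63 (14, 49) and 26 (4, 22).

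The libraries share replicate numbers only: same-numbered deviations correlated at -0.03, -0.01, -0.01 and 0.03 for KO IR with KO sham and at -0.08, 0.01, 0.09 and -0.01 for KO IR with WT IR. With the replicate block 64 members were called against KO sham (13 higher, 51 lower) and 16 against WT IR (2 higher, 14 lower).

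Shares are given in the order WT sham, WT IR, KO sham, KO IR. They were 65.8%, 59.3%, 65.8% and 54.1% without mitochondrial mRNAs in the total, and 45.3%, 40.2%, 45.9% and 36.1% of estimated counts. They were 25.9%, 21.6%, 27.4% and 17.9% for the top 10, 47.1%, 39.4%, 47.9% and 34.5% for the top 50, and 58.3%, 54.6%, 59.5% and 50.8% for the top 200. Without the 7 members close in length to a mitochondrial mRNA they were 44.96%, 40.004%, 45.5% and 35.1%. Each group's own top 100 held 51.7% in WT IR and 47.3% in KO IR. Leaving out 1 library gave 52.5% to 54.2%, 47.1% to 48.3%, 53.4% to 54.7% and 43.1% to 44.0%. KO IR had the lowest mean in each case.

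Sums per gene and peaks at the members were planned and not run, since they need gene names. At 37.79 to 44.6 M estimated counts, libraries of a group differed beyond counting noise on average over transcripts. This average does not show what sets the precision of a single transcript, and the part of depth was not tested.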

Other observations

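Transcripts from outside the list held a larger share of TPM after IR. In KO IR 22 transcripts entered the 100 most abundant, from WT sham ranks 104 to 1088. Their summed share of TPM was 5.16% ± 0.426 in KO IR and 5.19% ± 0.554 in WT IR, against 1.13% ± 0.245 in KO sham and 1.09% ± 0.251 in WT sham (SD, n = 4 each). In WT IR 18 entered, from ranks 107 to 1088, with 5.07% ± 0.551 of TPM in WT IR, 4.55% ± 0.365 in KO IR and 0.766% ± 0.298 and 0.766% ± 0.297 in KO sham and WT sham. The 5 that entered in KO sham came from ranks 101 to 116 and held 0.434% ± 0.0674 there and 0.361% ± 0.0749 in WT sham. These transcripts were chosen for being high in the group named, so their values are a description. Ranks 101 to 200 held 5.21%, 6.83%, 5.40% and 7.35% of TPM (WT sham, WT IR, KO sham and KO IR).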
